A study of Mus musculus with 24 samples.

Results

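SOX9 binding was compared between 2 ages of the mouse retina, postnatal days 2 (P2) and 17 (P17), from the deposited list of SOX9 peaks of each age. A peak is a stretch of genome that the authors' processing called as enriched for SOX9. Peaks of the P2 and P17 lists that overlapped by 1 bp or more were called shared, and the others P2-only or P17-only. The 2 lists held 8331 peaks, 5476 at P2 and 2855 at P17, out of 349901 in the 8 lists of the series. The study profiled nuclei of wild-type retinas by CUT&RUN, in which an antibody directs a nuclease to a chromatin protein and the DNA cut loose around it is sequenced. Its 24 libraries, each from 600000 nuclei, cover SOX9, its relative SOX8, 2 histone modifications (H3K4me3 and H3K27ac) and IgG controls. SOX9 was profiled with the Millipore Sigma antibody ab5535 in 2 libraries at P2 and 2 at P17, and no strain, treatment or number of animals is given for either age. Each list names no replicate and carries no peak height, so no replicate error could be computed, every value below is a description of these lists without a test, and the depth of the libraries is unknown.

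SOX9 is a transcription factor of the SoxE group, whose HMG box binds and bends DNA at short sequences of the AACAAT type. In the retina it is made by progenitor cells and later by Müller glia, the cells that span the tissue and support its neurons, and it is not a typical protein of rods. At P2 the last progenitors are still dividing and giving rise to rods, bipolar cells and Müller glia, and at P17 the retina is close to mature and consists mainly of rods. H3K4me3 is a mark of promoters in use, and H3K27ac is found at promoters and enhancers that are active. Nuclei of the whole retina were used, so fewer cells with SOX9 and less binding per cell cannot be told apart.

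The labelled tissue was checked against H3K4me3 at genes of known cell types. Of all protein-coding genes 49.3% had an H3K4me3 peak at P2 and 50.9% at P17. At P2 the mark lay at 18 of 18 genes of a retinal progenitor list and, near the share of all genes, at 14 of 31 rod genes. At P17 it lay at 31 of 31 rod genes and, again near the share of all genes, at 9 of 18 progenitor genes. At P17 it lay at 2 of 12 microglia genes, 2 of 12 vascular genes and 3 of 11 genes of the pigment epithelium, the cell types next to or within the retina.

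Several of the widest SOX9 peaks at P2 lay over microRNA genes and no protein-coding gene. The mature microRNAs of these loci are shown because the peaks at Mir9-2 and at Mir183 and Mir96 are among the clearest age differences. Sequences come from RefSeq (GRCm38.p6), and the capitals mark the seed, bases 2 to 8, through which a microRNA pairs with its targets.
mmu-miR-9-5p: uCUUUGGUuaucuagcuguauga
mmu-miR-183-5p: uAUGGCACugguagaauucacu
mmu-miR-96-5p: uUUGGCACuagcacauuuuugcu
mmu-miR-182-5p: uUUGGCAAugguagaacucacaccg
The seeds of miR-183, miR-96 and miR-182, which are made from 1 gene cluster, all hold the letters GGCA but differ from each other, and that of miR-9 is unrelated to them. For mmu-let-7b-5p and mmu-let-7c-5p, whose genes lay near a narrow P2-only peak, the seed is shared.
mmu-let-7b-5p: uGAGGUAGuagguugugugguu
mmu-let-7c-5p: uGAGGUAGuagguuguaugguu

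Promoters under the peaks are shown next because the sets differed in how many CG dinucleotides their promoters hold. For each set these are the 250 bases before the start site (RefSeq, GRCm38.p6) of the 2 listed genes whose start site lay under the widest peaks, with each CG in capitals.
Six3 chr17:85620584-85620833 plus strand: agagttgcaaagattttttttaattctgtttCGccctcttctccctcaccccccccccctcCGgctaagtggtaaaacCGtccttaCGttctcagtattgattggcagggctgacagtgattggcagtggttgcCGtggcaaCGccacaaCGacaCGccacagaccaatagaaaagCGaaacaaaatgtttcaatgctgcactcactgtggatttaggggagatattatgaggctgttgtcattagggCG
Pax6 chr2:105682213-105682462 plus strand: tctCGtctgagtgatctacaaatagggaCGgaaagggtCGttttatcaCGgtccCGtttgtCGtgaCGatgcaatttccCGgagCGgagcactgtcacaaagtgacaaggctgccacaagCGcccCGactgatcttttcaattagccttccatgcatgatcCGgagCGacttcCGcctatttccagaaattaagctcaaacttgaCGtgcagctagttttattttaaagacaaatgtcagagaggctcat
Six6 chr12:72939632-72939881 plus strand: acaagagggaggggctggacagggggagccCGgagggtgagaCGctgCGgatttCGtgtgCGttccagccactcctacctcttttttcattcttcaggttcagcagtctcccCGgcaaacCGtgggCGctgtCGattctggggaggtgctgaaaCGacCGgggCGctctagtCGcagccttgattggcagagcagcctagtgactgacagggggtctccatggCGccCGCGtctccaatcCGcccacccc
Id2 chr12:25096093-25096342 minus strand: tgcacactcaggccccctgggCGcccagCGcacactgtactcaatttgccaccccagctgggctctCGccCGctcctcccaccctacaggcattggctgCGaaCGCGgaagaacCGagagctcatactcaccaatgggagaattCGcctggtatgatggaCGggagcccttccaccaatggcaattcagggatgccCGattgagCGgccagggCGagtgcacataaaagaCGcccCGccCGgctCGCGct
Prph2 chr17:46910228-46910477 plus strand: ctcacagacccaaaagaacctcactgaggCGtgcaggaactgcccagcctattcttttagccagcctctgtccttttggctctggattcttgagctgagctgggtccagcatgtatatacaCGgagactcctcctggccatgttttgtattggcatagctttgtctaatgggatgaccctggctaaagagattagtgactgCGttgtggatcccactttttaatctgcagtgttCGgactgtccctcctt
Ctbp2 chr7:133015248-133015497 minus strand: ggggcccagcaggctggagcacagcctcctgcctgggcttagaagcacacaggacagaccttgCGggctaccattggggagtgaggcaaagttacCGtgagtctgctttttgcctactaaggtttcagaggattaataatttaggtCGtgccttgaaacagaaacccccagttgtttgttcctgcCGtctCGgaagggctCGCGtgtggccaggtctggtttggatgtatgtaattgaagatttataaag
Six3 and Pax6, eye-field transcription factors, lay in shared peaks. Six6, another eye-field factor, and Id2, an inhibitor of bHLH transcription factors, lay in P2-only peaks. Prph2, a protein of the rod and cone outer segment, and Ctbp2, which encodes a transcriptional corepressor and the synaptic ribbon protein RIBEYE, lay in P17-only peaks. The stretches shown hold 10 CGs at Six3, 15 at Pax6, 17 at Six6 and 18 at Id2. Those of the P17-only peaks hold 4 at Prph2 and 7 at Ctbp2.

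Most P2 peaks had no counterpart at P17, whereas most P17 peaks had one at P2. Of the P2 peaks 1705 were shared, or 31.1% (95% Wilson interval 29.9 to 32.4%, which like all intervals here covers counting error only), and 3771 were P2-only. Of the P17 peaks 1674 were shared (58.6%, 56.8 to 60.4%) and 1181 were P17-only. Both shares moved when the P2 list was limited to its 2855 widest peaks, to 39.4% of P2 and 39.0% of P17 peaks. That limit selects by width as well as number. With every peak trimmed to 500 bp around its centre 28.8% of P17 peaks were shared, so the centres of many shared peaks lay 500 bp or more apart. By chromosome the shared part of the P17 list ran from 47.0% on chromosome 15 to 75% on chromosome 13.

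The P17-only peaks were the widest set and the P2-only peaks the narrowest. Median widths were 2525 bp for P2-only peaks (quartiles 2056 and 3132), 2974 bp for P2 shared peaks (2428 and 3724), 4251.5 bp for P17 shared peaks (3138 and 5740) and 6304 bp for P17-only peaks (5426 and 7526). The median of the P17-only set was 2.50 times that of the P2-only set, and the upper quartile of the P2-only set lay below the lower quartile of the P17-only set. Peaks of 10 kb or more numbered 8 among the P2-only, 20 among the P2 shared, 99 among the P17 shared and 93 among the P17-only peaks. As a result the 1181 P17-only peaks covered 8.02 Mb and the 3771 P2-only peaks 10.3 Mb.

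**Figure D1:**
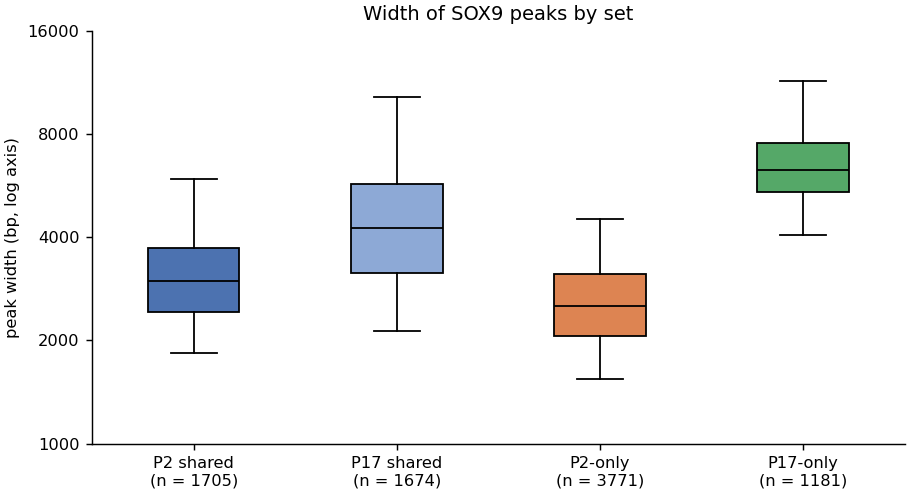
Width of SOX9 peaks in bp on a log axis, in the 4 sets, with the number of peaks in brackets. Boxes run from the lower to the upper quartile with the median as a line, and whiskers from the 5th to the 95th percentile of the peaks; the P17-only box, with a median of 6304 bp, lies above the P2-only box, with a median of 2525 bp.

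The widest age-specific peaks are named next. Among P2-only peaks they covered 14467 bp at Msi1, which encodes the Musashi RNA-binding protein of neural progenitors, 13549 bp at Bahcc1, 13245 bp at Six6, 12346 bp at Ccnd1, the D cyclin of retinal progenitors, and 11377 bp at Rara, a retinoic acid receptor. Bahcc1 (7253 to 4314 bp) and Rara (8879 to 8597 bp) also had shared peaks elsewhere, so these genes had SOX9 peaks at both ages. The other 3 of the 8 widest P2-only peaks lay more than 5 kb from any protein-coding gene, and 2 of these were microRNA loci. Among P17-only peaks they covered 25004 bp at Ints1, a subunit of the Integrator complex, 23811 bp at Prph2 and Ubr2, 21810 bp at Nrxn2, a presynaptic adhesion protein, 19188 bp at Cep170b and 17498 bp at Ctbp2. Others of the 8 lay at Aebp1 and Pold2 (17369 bp) and at Cplx3, Scamp2 and Ulk3 (16498 bp), Cplx3 being a complexin of retinal ribbon synapses. All 8 widest P2-only peaks overlapped P2 H3K4me3, and the P17-only peaks at Ints1, Cep170b and Aebp1 overlapped H3K4me3 at neither age.

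P2-only peaks lay far from P17 peaks, whereas P17-only peaks often lay in the neighbourhood of P2 peaks. The median distance to the nearest SOX9 peak of the other age was 179194 bp for P2-only and 42328 bp for P17-only peaks. Within 5 kb of such a peak lay 152 P2-only peaks (4.03%) and 121 P17-only peaks (10.2%). Since the P2 list is the longer one, a P17 peak has more peaks to lie near, and these distances were not compared under equal numbers.

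The sets differed in where they lay along genes. A RefSeq start site fell within 71.6% of P2 shared and 73.2% of P17 shared peaks, 61.2% of P2-only peaks (59.6 to 62.7%) and 28.3% of P17-only peaks (25.8 to 30.9%). P17-only peaks instead lay inside a gene, covering neither of its ends, in 46.7% (43.8 to 49.5%), against 19.8% of P2-only peaks. Wider peaks reach a start site more easily, and these shares were not compared at equal width. The annotation used has gene ends but no exon structure, so exons, introns and UTRs were not told apart.

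Marks followed the same order. H3K4me3 of the same age lay at 89.0% of P2 shared, 91.2% of P17 shared, 75.7% of P2-only and 31.5% of P17-only peaks, a difference of -44.2 percentage points between the age-specific sets (-47.1 to -41.2). With the P2 list limited to the P17 number of peaks the difference was -17.8 points, and with peaks trimmed to 500 bp -28.2. Neither H3K4me3 nor H3K27ac of P17 lay at 369 P17-only peaks (31.2%), against 29 of the P17 shared peaks (1.73%). The matching share at P2 was 0.424% of P2-only peaks, where the H3K27ac list is far longer and few places lie outside it.

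Loss of a SOX9 peak went mostly without loss of the promoter mark. Of the 3771 P2-only peaks, 2611 (69.2%) overlapped H3K4me3 at both ages, 244 (6.47%) at P2 only, 88 at P17 only and 828 (22.0%) at neither. Of the 1181 P17-only peaks, 786 (66.6%) overlapped it at neither age, 218 (18.5%) at both and 154 (13.0%) at P17 only. At most P2-only peaks the promoter mark was thus listed at both ages although SOX9 was listed at P2 alone.

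SOX8, the close relative of SOX9, was profiled in the same tissue with 4 libraries per age. Shared SOX9 peaks overlapped SOX8 of their own age in 73.5% at P2 and 65.5% at P17, P2-only peaks in 32.9% and P17-only peaks in 22.0% (19.7 to 24.5%). SOX8 of the other age overlapped 433 P2-only peaks (11.5%), of which 277 had SOX8 at both ages and 156 at P17 only, and 16 P17-only peaks (1.35%), of which 4 had it at both ages. Among the P2-only peaks with SOX8 at P17 only was a peak of 5803 bp in Dkk3, which encodes a secreted protein of Müller glia and had no P17 SOX9 peak.

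**Figure D2:**
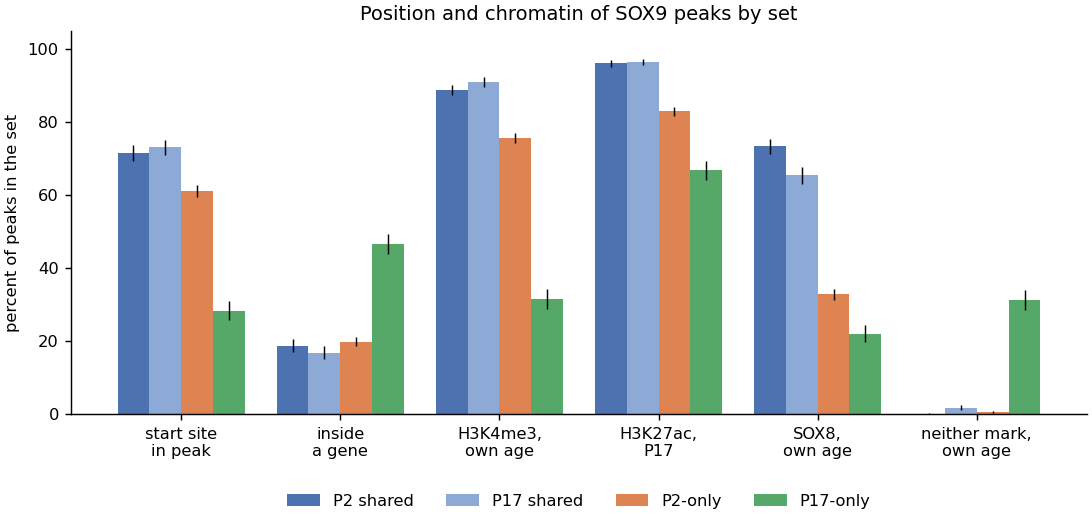
Percent of SOX9 peaks in each of the 4 sets that hold a start site, lie inside a gene, or overlap H3K4me3 of their own age, H3K27ac of P17, SOX8 of their own age, or neither mark of their own age; error bars are 95% Wilson intervals. The P17-only set stands at 28.3% for start sites and 31.5% for H3K4me3, below the other sets, and at 31.2% for neither mark, above them.

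Shared peaks were mostly wider at P17. In 1630 places 1 P2 peak met 1 P17 peak, and the median width there went from 2970.5 to 4196.5 bp. The median ratio of P17 to P2 width was 1.32, or 0.40 on the log2 scale (quartiles 0.017 and 0.87). The P17 peak was the wider in 1236 pairs (75.8%), more than 2 times as wide in 327 (20.1%), and less than 50% as wide in 16. A further 39 overlap groups held more than 1 peak of an age. In 34 of them several P2 peaks lay under 1 P17 peak, and at Nfic, a nuclear factor I gene, 4 P2 peaks of 2283 to 4918 bp lay under a P17 peak of 30451 bp. In the other 5, which include Pax6 and Six3, 1 P2 peak met 2 P17 peaks.

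The median change in width was smaller in the other lists. The median ratio of such pairs was 1.08 for SOX8 (1199 pairs), 1.04 for H3K4me3 (8139) and 1.20 for H3K27ac (16099). The H3K27ac pairs spread more widely in both directions, with 23.9% more than 2 times as wide at P17 and 12.4% less than 50% as wide, and log2 quartiles of -0.38 and 0.96. With the P2 SOX9 list limited to the P17 number of peaks the SOX9 median was 0.28 on the log2 scale, next to 0.27 for H3K27ac. At the places of shared SOX9 peaks it was 1.08 for SOX8 and 1.07 for H3K4me3. The SOX9 ratio was 1.28 where H3K4me3 was present at both ages (1443 pairs) and 1.57 where it was present at neither (118 pairs). Pairs with a start site in both peaks had a ratio of 1.30, and pairs with none in either 1.36.

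The P17 peak often enclosed the P2 peak. The P2 peak lay wholly inside the P17 peak in 733 pairs (45.0%), the reverse held in 192 (11.8%), and 705 were staggered. At 1005 pairs whose P2 peak held start sites of 1 strand, the P17 peak reached a median of 224 bp further upstream and 435 bp further downstream, in the direction of transcription, and 576 of these pairs (57.3%) gained more downstream.

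**Figure D3:**
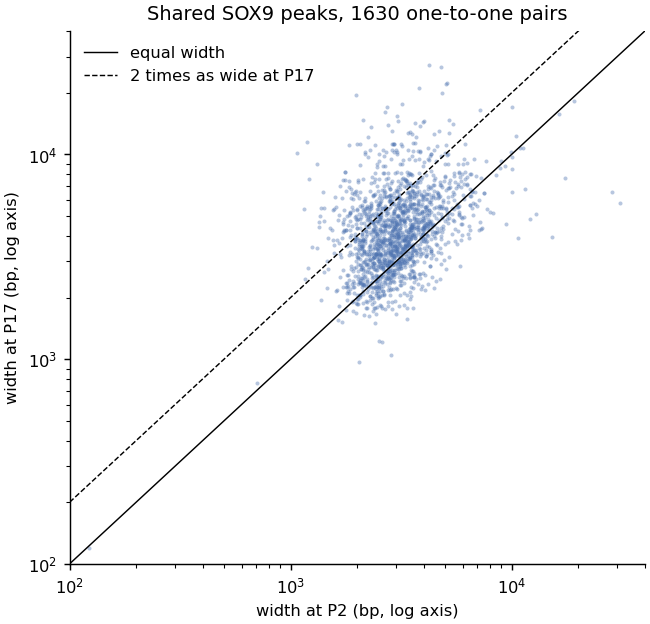
Width at P17 against width at P2, both in bp on log axes, for the 1630 places where 1 P2 and 1 P17 SOX9 peak overlap; the solid line marks equal width and the dashed line 2 times the P2 width. Most points (1236) lie above the solid line and 327 above the dashed line, while a few of the widest P2 peaks lie far below.

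Single pairs changed far more than the median. At Icmt, a methyltransferase of prenylated proteins, and Rnf207 the width went from 1974 to 19469 bp, a ratio of 9.86. At Cry2, a repressor of the circadian clock, it went from 2125 to 14723 bp, and inside Gse1 from 4223 to 27245 bp. Narrow P2 peaks favour a high ratio by construction, since 139 pairs with a P2 width of 1 to 2 kb had a median of 2.31 and 315 pairs of 4 kb or more a median of 1.07. The strongest narrowing was at Pmepa1, an inhibitor of TGF-beta signalling, from 30864 to 5773 bp, a ratio of 0.187. At Meis1, a homeobox gene of the early eye, the width went from 15172 to 3951 bp, and at Irx5, a homeobox gene of bipolar cells, from 12951 to 5111 bp. Narrowing was also marked at Ddr1, a collagen receptor (10738 to 3921 bp), and at Tnrc18 (12070 to 4830 bp).

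Genes were counted by the SOX9 peaks that lay over them or within 5 kb. Of 21887 protein-coding genes, 6073 (27.7%) had a P2 peak and 3445 (15.7%) a P17 peak. A gene is called kept with peaks at both ages, which held for 2494 (11.4%), lost with a P2 peak and no P17 peak, which held for 3579 (16.4%), and gained in the reverse case, which held for 951 (4.35%). The other 14863 (67.9%) had no SOX9 peak. Gains made up 21.0% of the 4530 genes whose status changed. Losses outnumbered gains in the full lists, but with the P2 list limited to its 2855 widest peaks 1511 genes were lost and 1787 gained. Outside the H3K4me3 peaks of both ages gains were also the more frequent, at 769 against 474. The limit selects P2 peaks by width as well as number, so the part of list length was not tested.

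Lost genes kept their promoter mark more often than not. H3K4me3 lay at 93.5% of lost genes at P2 and at 89.9% at P17, at 57.2% and 67.8% of gained genes, at 96.4% and 96.6% of kept genes and at 30.2% and 32.7% of genes without SOX9. A P2 H3K4me3 peak was absent from the P17 list at 201 lost genes (5.62%), and 134 gained genes (14.1%) had H3K4me3 at P17 only. Among kept genes, 261 (10.5%) had their P2 and P17 peaks at different places. At Ephb2, an Eph receptor of axon guidance, there were 4 P2-only and 3 P17-only peaks, and Plec, the cytoskeletal linker plectin, had 1 P2-only peak and 3 P17-only peaks.

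Several genes lost or gained more than 1 peak. There were 373 genes with 2 or more P2-only peaks and 164 with 2 or more P17-only peaks. Frmd4a, a scaffold protein of cell junctions, lost 4 peaks and had none at P17, and Adam11 lost 3. Src, the tyrosine kinase, had 5 peaks at P2, of which 4 were P2-only. In the other direction Camta1, a calcium-responsive transcription activator, had 5 P17-only peaks, and Myo7a, the unconventional myosin of the photoreceptor cilium and hair cells, and Chd5, a neuronal chromatin remodeller, each had 4 with none at P2. Cdh23, the cadherin that acts with Myo7a in Usher syndrome, had 3. Gse1 had the most peaks of the genes named here, 19 at P2 and 14 at P17.

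The gene lists below were drawn up by cell type and function, with earlier results of these data known. Each count is to be read against 11.4% kept, 16.4% lost and 4.35% gained among all protein-coding genes. Of 18 retinal progenitor genes, all 18 had a P2 peak, 12 were lost and 6 kept. The kept genes were Pax6, Rax, Lhx2, Six3, Hes5 and Dll1, and all 6 had H3K4me3 at P17. The lost genes included Six6, Hes1, Sox2, Notch1, Ccnd1, Fgf15, Sfrp2, Nr2e1, Mki67 and Top2a, and 3 of the 12 had H3K4me3 at P17. The part of the fall in H3K4me3 in the loss of SOX9 peaks was not tested.

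The eye-field factors Pax6 and Six3, which set up the retina and which some mature neurons or glia go on making, had some of the widest SOX9 peaks at P2. The P2 peak at Pax6 (chr2:105665720-105691180, over the start site) was 25461 bp wide and was overlapped at P17 by peaks of 6159 and 5598 bp. The P2 peak at Six3 (chr17:85606171-85631777) was 25607 bp wide and was overlapped by peaks of 12813 and 5896 bp. At both genes a broad P2 stretch was thus replaced by shorter ones within it. Lhx2, a LIM homeobox factor of progenitors and Müller glia, went from 9352 to 8735 bp and Rax, a homeobox factor of both, from 11262 to 10712 bp. Six6 had a P2-only peak of 13245 bp over its start site (chr12:72935717-72948961).

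Of 12 Sox family genes, 6 were lost, 1 kept and 1 gained. Sox9 itself had a P2-only peak of 5467 bp over the gene (chr11:112780741-112786207). Sox8 had P2-only peaks of 6595 bp over its start site and of 3088 bp nearby. Sox2, a factor of progenitors and Müller glia, had a P2-only peak of 6176 bp, and Sox4, Sox11 and Sox6 were lost as well. Sox12 was kept (5488 to 4730 bp), and Sox10, the SoxE factor of oligodendrocytes and neural crest, had a P17-only peak of 5139 bp without H3K4me3 at either age. Of the 4 nuclear factor I genes, which take part in forming Müller glia and bipolar cells, Nfia and Nfib were lost and Nfic and Nfix kept. The P17 peak in Nfix was 13272 bp wide, over P2 peaks of 3113 and 2475 bp.

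Müller glia genes seldom had SOX9 peaks at P17. Of 22, 6 were lost, 0 kept and 1 gained, and 15 had no SOX9 peak at either age. A P17 peak lay at 4.55% of them, against 15.7% of all protein-coding genes. The shares with a P2 peak (27.3%), gained (4.55%) and without a peak (68.2%) were near those of all genes (27.7, 4.35 and 67.9%). The lost genes were Glul, the glutamine synthetase of these cells (4351 bp over the start site), Rlbp1, a retinoid-binding protein (3830 bp), Slc1a3, a glutamate transporter (2291 bp, within 5 kb), Kcnj10, a potassium channel (2295 bp), Vim, an intermediate filament (1957 bp), and Dkk3 (5803, 5603 and 2876 bp). The P2-only peak at Rlbp1 covered no listed start site of that gene and also lay over Fanci. Apoe, a lipid carrier, had a P17-only peak of 7775 bp that also covered part of Tomm40. Aqp4, Clu, Car14 and Abca8a were among those with none. H3K4me3 lay at 15 of the 22 genes at P2 and at 9 at P17, and its part in these counts was not tested. The count of lost genes was 3 with the P2 list limited to its widest peaks.

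Rod genes more often had a SOX9 peak at P17 than at P2. Of 31, 14 were gained, 6 kept, 0 lost and 11 had no SOX9 peak, so 20 had a P17 peak. The gained genes included parts of the transduction cascade, with the transducin subunit Gnat1, the phosphodiesterase subunits Pde6a, Pde6b and Pde6g, the channel subunit Cngb1 and the exchanger Slc24a1. They also included its shut-off and calcium control, with arrestin (Sag), the kinase Grk1 and recoverin (Rcvrn). Prph2, Rp1, Fscn2 and Aipl1, of which the first 3 build the outer segment and the last is a chaperone of the phosphodiesterase, were gained as well. The kept genes were Gnb1, Rom1, Prom1, Tulp1, Reep6 and Rpgrip1. The 27 P17 peaks at rod genes were 3426 to 23811 bp wide with a median of 7033 bp, and 8 of them overlapped P17 SOX8.

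The peak at Prph2 was 23811 bp wide (chr17:46908952-46932762), while Sag had a peak of 3426 bp and Pde6b one of 4298 bp, each over the start site. Grk1 had peaks of 7637 and 5899 bp, and Fscn2 a peak of 15849 bp that also lay over Faap100. The peak counted for Gnat1 is a shared one of 17688 bp that reached the gene at P17 from Sema3f and Slc38a3, and that of Cngb1 (4995 bp) lay in the 5 kb margin only. At the 6 kept genes the pairs widened in 6 of 6, by a median ratio of 2.57. Examples are Gnb1, the beta subunit of transducin (2386 to 7312 bp), and Rom1, a partner of Prph2 (2450 to 7027 bp). The pairs at Rom1, Reep6, Rpgrip1 and Tulp1 also lay over the neighbours Eml3, Pcsk4, Hnrnpc and Tead3. The pair at Tulp1 covered a start site of Tead3, so the widening cannot be assigned to the rod gene alone. H3K4me3 lay at 14 of the 31 genes at P2 and at 31 at P17, and its part in the gains was not tested. Outside the H3K4me3 peaks of both ages 2 rod genes were gained, and with a margin of 50 kb 8.

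Genes of cones, which are far fewer than rods in mouse retina, had 1 kept gene of 10, the beta subunit Gnb3, and no gain. Of 14 photoreceptor transcription factors, 6 were kept, 2 gained and 1 lost. Crx, the homeobox activator of photoreceptor genes, went from 4470 to 12563 bp and Mef2d, a MADS-box factor, from 3640 to 14276 bp. Otx2, which acts above Crx, went the other way from 8263 to 5195 bp, as did Rorb, a nuclear receptor needed for rod fate, from 9481 to 4587 bp. Nr2e3, the rod nuclear receptor, was 8546 and 7936 bp wide, and Neurod1 4072 and 4649 bp. Nrl, the bZIP factor that sets rod identity, had a P17-only peak of 12411 bp over its start site (chr14:55514903-55527313), and Esrrb, an orphan nuclear receptor, had P17-only peaks of 7149, 6331 and 8340 bp. Prdm1, which holds back bipolar fate in young photoreceptors, was lost, with 3 P2-only peaks.

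At ribbon synapse genes 6 of 12 were kept, 1 gained and 0 lost. Their 7 pairs had a median ratio of 1.60, and 6 of them widened. Cacna2d4, a calcium channel subunit of photoreceptors, went from 3570 to 11422 bp, and Bsn, the active zone scaffold bassoon, from 3137 to 5470 bp with a further P17-only peak of 10014 bp. The pairs at Cacna2d4 and Bsn also lay over Lrtm2 and Apeh, so their widening cannot be assigned to the synapse genes alone. Ctbp2 had a shared peak of 4459 and 4006 bp, and elsewhere a P17-only peak of 17498 bp that covered a RefSeq start site. Unc13a, a vesicle priming protein, and Rims2 and Cplx4 were kept too, and Cplx3 was gained.

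The Notch pathway keeps progenitors undifferentiated and is later used by Müller glia. Of its 22 genes, 9 were lost, 8 kept and 1 gained. Among ligands Dll1 was kept (6823 to 5720 bp) and so was Jag2 (4171 to 10810 bp), whereas Dll3, Dll4 and Jag1 were lost. The receptor Notch1 lost a peak of 7329 bp over its start site and one of 4813 bp. The DNA-binding partner Rbpj (3430 to 3786 bp) and the coactivator Maml1 (2006 to 4389 bp) were kept. Among Hes and Hey genes Hes5 (7697 to 9342 bp), Hes6 (5782 to 5570 bp) and Hey1 (2398 to 2764 bp) were kept, and Hes1 (6319 bp) and Hey2 were lost. The peaks at Hes5 and Hes6 also lay over Pank4 and Per2. The feedback inhibitor Nrarp was lost too. The fringe glycosyltransferases split, with Lfng lost and Rfng gained.

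Proneural and Id genes were mostly lost. Of 19 bHLH and Id genes, 11 were lost, 2 kept and 1 gained. All of Id1 (3126 bp), Id2 (7405 bp), Id3 (6467 bp) and Id4 (2555 bp), which block bHLH factors, had a P2-only peak. So had Neurog2 (4468 bp), Neurod4 (4332 bp) and Olig2 (4869 bp), which drive neuronal or progenitor fates, and the E protein genes Tcf4 and Tcf12. The kept genes were Neurod1 and the E protein gene Tcf3 (2796 to 2863 bp). Neurod2 had a P17-only peak of 8885 bp in the 5 kb margin. Outside H3K4me3 of both ages 3 genes of this list were lost.

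Growth factor and cytokine signals to glia gave 11 lost, 3 kept and 1 gained of 20 genes. The lost genes included Stat3 (1576 bp), Socs3 (5086 and 3963 bp), Jak2, Lifr, Il6st and Cntfr of the cytokine pathway. Fgfr3, Etv1, Etv4, Etv5 and Spry4 of the FGF pathway were lost as well, whereas the FGF feedback genes Spry2 (7119 to 4253 bp) and Dusp6 (3987 to 4318 bp) and the transcription factor gene Zbtb20 were kept. Fgfr1 had a P17-only peak of 6809 bp inside the gene. Of 13 Hippo pathway genes 4 were lost (Lats1, Tead1, Tead2 and Wwtr1) and 2 kept (Tead3 and Amotl2).

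For nuclear position and the apical junction, a process named in the title of the series, 5 of 14 genes were kept, 4 lost and 0 gained. Syne2, the nesprin that ties nuclei to the cytoskeleton, had a P2-only peak of 2252 bp, and Lbr, the lamin B receptor, one of 2287 bp. Sun1, the partner of Syne2, counted as kept through a peak in the 5 kb margin and had a P17-only peak of 4428 bp over its start site. Lmnb1 (3483 to 3845 bp) and Lmnb2 (3472 to 6403 bp), the B-type lamins, were kept. Crb2, a polarity protein of the apical junction, had P2-only peaks of 3286 bp at its start site and 2554 bp before the gene, and at P17 3 other peaks inside it, of 3827, 6422 and 5308 bp.

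Cell cycle genes gave 13 lost, 4 kept and 0 gained of 27. Ccnd1 had P2-only peaks of 12346 and 3779 bp (chr7:144932238-144944583 and chr7:144927378-144931156), and Cdk6, Ccna2, E2f1, Pcna, Mcm5, Mki67 and Top2a were lost too. Of the inhibitors, Cdkn1a, Cdkn2c and Cdkn2d were lost and Cdkn1b was kept (3712 to 3400 bp). Mycn (6550 to 8073 bp), E2f3 and Cdk4 were the other kept genes. H3K4me3 lay at 25 of the 27 genes at P2 and 15 at P17, and its part was not tested.

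Chromatin regulators stood at the other end. Of 29, 18 were kept, 10 lost and 1 gained, and H3K4me3 lay at all 29 at both ages. Their 18 pairs had a median width ratio of 1.02, with 9 wider at P17. Some narrowed, such as Arid1a, a subunit of the BAF remodelling complex (7326 to 4385 bp), and Tnrc18. Others widened, such as Chd4, the NuRD remodeller (1360 to 5030 bp), and Kmt2d, an H3K4 methyltransferase of enhancers (2216 to 5586 bp). At Cic, a repressor of growth factor targets, a P17 peak of 25261 bp lay over P2 peaks of 3718 and 7401 bp. At the demethylase gene Kdm6b a P17 peak of 18535 bp lay over P2 peaks of 5529 and 6583 bp. These groups of peaks are not among the 18 pairs. Lost genes included Ezh2, Hdac1, Hdac2, Dnmt1 and Crebbp. In the wider 50% of each list 7 of the 29 were kept.

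Lists of other cell types had 0 to 2 gained genes each. Of 16 bipolar genes 2 were kept (12.5%), 2 lost (12.5%) and 1 gained (6.25%), which is near the shares of all genes. The gained one was Gng13, a G protein subunit of ON bipolar cells, through a peak of 6514 bp that also lay over Chtf18. Of 20 amacrine and horizontal cell genes 7 were lost and 3 kept, the lost ones including Gad1 and Gad2, which make GABA, and Prox1. Ganglion cell genes had 1 lost (Nefm) and 1 gained (Isl2) of 15. Of 12 cartilage genes known as SOX9 targets in chondrocytes, 1 was kept (Col2a1), 2 lost (Col9a2 and Sox6) and 2 gained (Comp, and Col11a2 through a shared peak that came within 5 kb at P17). Of cells that could be mixed in, 1 of 12 microglia genes was kept (Aif1, through a peak over Prrc2a) and 0 of 7 astrocyte genes had a SOX9 peak. Of 12 vascular genes 2 were lost (16.7%) and 2 gained (16.7%), and of 11 pigment epithelium genes 2 were lost (18.2%) and 1 gained (9.09%). These shares of lost genes are near that of all genes, and the shares of gained genes, from 1 or 2 genes, lie above it. Of 12 housekeeping genes 5 were kept, 3 lost and 0 gained.

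**Figure D4:**
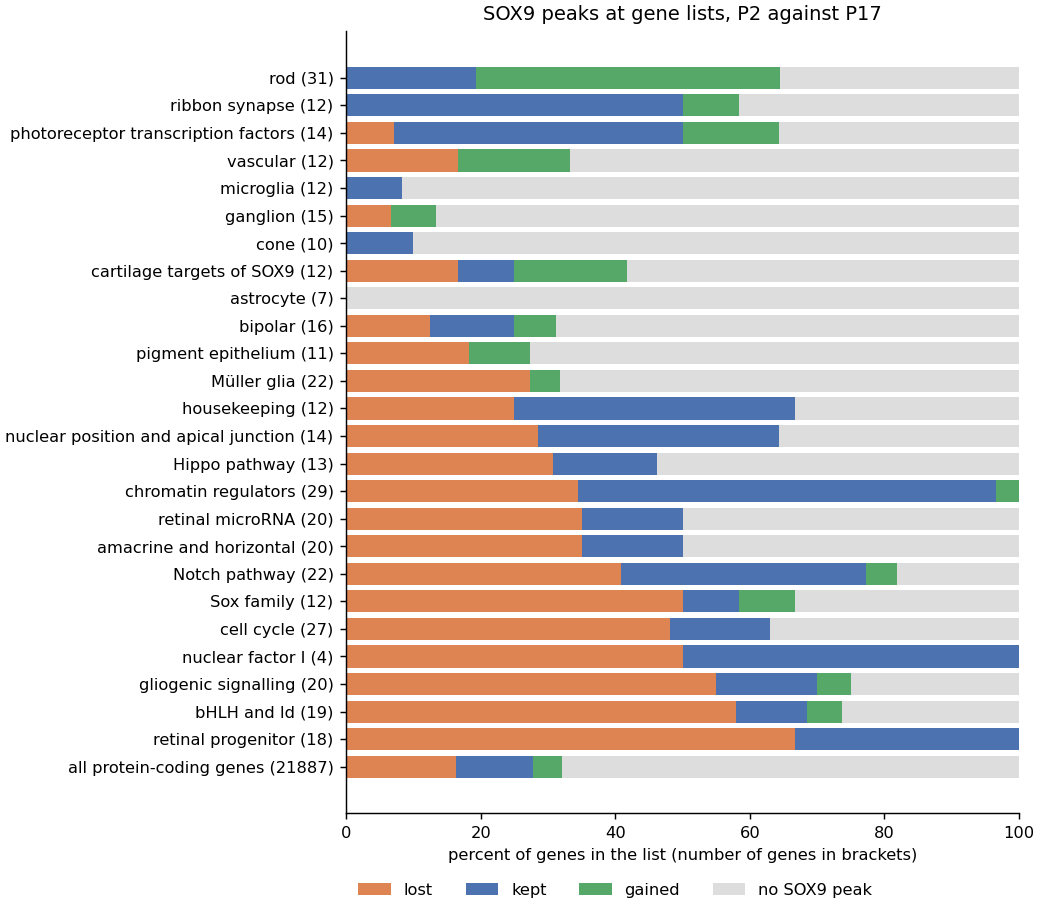
Percent of the genes of each list that lost, kept or gained a SOX9 peak between P2 and P17 or had none, with the number of genes in brackets and all protein-coding genes as the bottom bar. The rod list at the top holds 14 gained of 31 genes, and the retinal progenitor list above the bottom bar holds 12 lost and 6 kept of 18.

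MicroRNA genes were counted in the same way. Of 1228, 165 (13.4%) had a P2 peak and 164 (13.4%) a P17 peak, 94 (7.65%) were kept, 71 (5.78%) lost and 70 (5.7%) gained. Of 20 microRNA genes known from retina, 10 had a P2 peak, and 7 were lost, 3 kept and 0 gained. Among the 50 widest peaks 5 lay over a microRNA gene at P2 and 6 at P17, and a wide peak has more room to cover one. In all, 43 of 1705 P2 shared (2.52%), 27 of 3771 P2-only (0.716%), 54 of 1674 P17 shared (3.23%) and 27 of 1181 P17-only peaks (2.29%) did.

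The peak over Mir9-2, whose microRNA restrains progenitor genes, was the second widest of the P2 list at 28401 bp (chr13:83714801-83743201). Its P17 counterpart was 6589 bp wide (chr13:83726526-83733114) and lay more than 5 kb from the microRNA, so that the gene counts as lost although the peak is shared. Mir9-3, which makes the same mature miR-9, kept its peak (6725 to 5806 bp). The 3 genes of miR-124, a microRNA of neurons, differed. Mir124a-2 had wide peaks at both ages (16333 and 15682 bp), Mir124a-3 widened from 4451 to 7473 bp, and Mir124a-1 had a P2-only peak of 13556 bp (chr14:64584950-64598505).

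The cluster of Mir183, Mir96 and Mir182, microRNAs abundant in photoreceptors and other sensory cells, lay at a P2-only peak of 11297 bp (chr6:30166579-30177875), which covered Mir183 and Mir96 and ended within 5 kb of Mir182. H3K4me3 overlapped that peak at both ages. This locus was lost, whereas 0 of the 31 rod genes were. The seed-sharing Mirlet7b and Mirlet7c-2 lay within 5 kb of a P2-only peak of 2189 bp.

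Promoters were compared over windows of 300 bases, 250 before to 50 after each of 21263 RefSeq start sites of 17492 protein-coding genes. Of the 389 listed genes 272 had such a window. The median number of CG dinucleotides was 26 at 1735 start sites in peaks of both ages, 25 at 3061 in a P2 peak only, 16 at 530 in a P17 peak only and 8 at 15937 in no SOX9 peak. Fewer than 5 CGs were held by 1.04%, 1.5%, 16.2% and 36.9% of them in that order. Promoters gained at P17 thus lay between those bound at P2 and those never bound, and their distribution had a low and a high part. Median GC content was 65.7, 64.3, 61 and 53.3%.

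**Figure D5:**
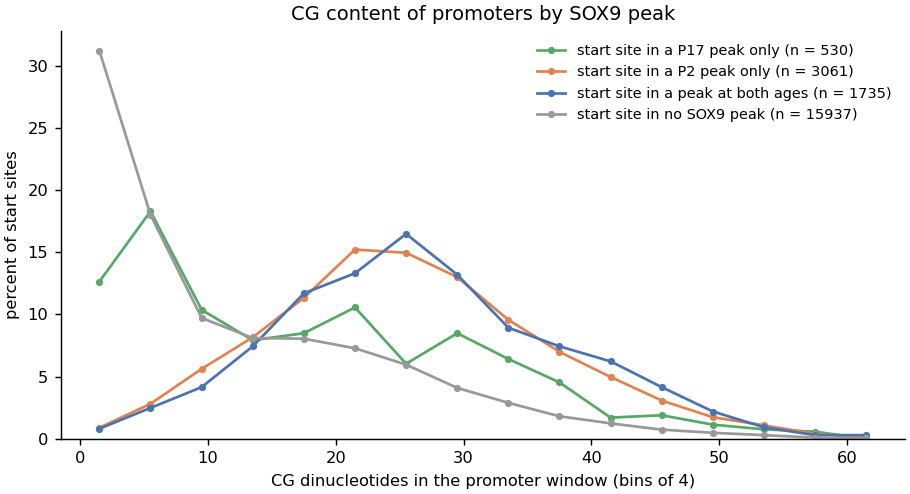
Percent of start sites against the number of CG dinucleotides in the promoter window, in bins of 4, for start sites in a SOX9 peak at both ages, at P2 only, at P17 only or at neither. The curves of start sites bound at P2 peak between 20 and 30 CGs. That of the 530 start sites in a P17 peak only is highest in the bin from 4 CGs (18.3%), with a lower maximum in the bin from 20 (10.6%). Start sites in no peak also lie mainly at low counts.

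Rod genes that gained SOX9 and rod genes without a SOX9 peak both lay at the low end. The highest CG count per gene had a median of 4 (2 to 10) at the 8 gained rod genes with a window. The median was 10 (3 to 31) at the 5 kept rod genes with a window and 5 (2 to 22) at the 9 without a SOX9 peak. It was 1.5 at 6 cone genes without one, 24 at kept and 22 at lost progenitor genes, and 33.5 at kept chromatin regulators. Short motifs, none of which contains another, were searched on both strands in the same windows. The SOX core AACAAT was in 4.03% of windows in peaks of both ages, 4.67% at P2 only, 4.72% at P17 only and 10.6% in no peak, against 9.05% of all windows. The related AACAAAG was in 2.42, 3.46, 3.96 and 5.62%, against 5.01% of all. Neither was more frequent in windows under SOX9 peaks, which were richer in G and C, than in the others. TAATCC, the core bound by CRX and OTX2, was in 4.73% of windows at both ages, 4.31% at P2 only, 7.55% at P17 only and 6.98% in no peak, against 6.42% of all. The E-box CACGTG was in 11.9, 10.7, 8.49 and 6.83% of the same sets, against 7.84% of all, and the GC box CCGCCC in 77.9, 73.4, 58.5 and 37.1%, against 46.2%. A match describes letters in a window, and peaks outside these windows were not searched.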

How the data were processed

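CUT&RUN libraries were made by the authors from 600000 retinal nuclei each with Epicypher kits, per the labels' protocols. Bowtie2, SEACR and the build GRCm38 are named in the submitters' processing notes, whose roles, versions and thresholds, the use of IgG and the way libraries were combined are not given in the sources used here. The deposited peak lists give chromosome, start and end, and a score that is 0 in every row, so positions and widths alone were used. Width depends on sequencing depth and calling threshold, both unknown here.

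Starts were counted from 1. Peaks were joined with genes, start sites and microRNAs of RefSeq tables of GRCm38.p6, the build of the lists, in Python 3.11.15 with numpy 2.4.6, pandas 2.3.3 and scipy 1.17.1. The overlap code was tested on simulated lists. The members, gene lists and comparisons were chosen with earlier results of these data known. Named genes are those of the gene lists, the 8 widest peaks of each set, the 8 pairs with the largest and the smallest width ratio, and the 8 genes with most P2-only peaks, most P17-only peaks or peaks of both ages that do not overlap. Alternatives were another overlap, list length, width, merging, trimming, autosomes, peaks outside H3K4me3 and other gene distances. IgG and reads were not analysed here. Some genes the naming rule covers are not reported here.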

Additional observations from a re-analysis of the deposited data

How the results depend on the processing

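Of 103 alternative values 72 stayed near the main one and 31 moved. Only the log2 width change and the difference in H3K4me3 overlap could change sign, and neither did. The order of lost and gained genes was reversed with the P2 list limited to the P17 number of peaks, and outside H3K4me3 of both ages. Near means within 1.5 times the main value for a count of genes, and within the 95% interval of the main value for a share, difference or median, which is the stricter rule. No paired analysis was possible because the lists name no replicate, and for the same reason no replicate could be left out. The wider 50% of each list gave a shared part of 28.5% of P17 and 15.3% of P2 SOX9 peaks, a log2 width change of 0.83, 2235 lost and 795 kept genes, 3 lost Müller glia genes and 7 kept chromatin regulators. With the P2 list limited to the P17 number of peaks these were 39.0%, 39.4% and 0.28, with 1511 lost, 1787 gained and 1658 kept genes, 3 lost Müller glia genes and a difference in H3K4me3 overlap of -17.8 points. Merging peaks across gaps of up to 5 kb gave 60.5% of P17 peaks. Trimming to 500 bp gave 28.8%, 15.0% and -28.2 points. Outside H3K4me3 of both ages the values were 13.2% of P17 and 12.6% of P2 peaks, a log2 width change of 0.65, 474 lost and 175 kept genes, 2 gained rod, 3 lost Müller glia, 2 lost progenitor and 3 lost bHLH and Id genes, and 1 kept chromatin regulator, from fewer peaks. A margin of 50 kb gave 5357 kept genes and 8 gained rod genes. Limiting and trimming leave fewer or shorter peaks to overlap, and other causes were not tested. An overlap of 50% of the shorter peak, peaks of at least 1 kb, autosomes, the gene itself without a margin, and summed widths left each value they were run on near the main one.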
